A study of Mus musculus with 7 samples.

Results

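The H3K9me3 peaks of mouse chromosome 19 were taken from the 2 deposited peak lists as every row on that chromosome with a start at or above 5000000 on mm9. This gave 888 of 26965 peaks, of which 691 of 23190 came from the WT list and 197 of 3775 from the KO list. The chromosome was chosen because its KO list is large, so that its high number of KO-only peaks is a description and not a finding. Of the peaks below the limit, 24 WT and 7 KO peaks on the same chromosome were left out. The first WT peak inside the limit was chr19:5314596-5314720 with a pileup of 9, and the last outside it was chr19:4687614-4688311 with a pileup of 13. For KO, the first peak inside was chr19:7738652-7738740 with a pileup of 11, and the last outside was chr19:4853362-4853444 with a pileup of 10.

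To ask which H3K9me3 marks depend on Setdb1 in differentiated cells, ChIP-seq of H3K9me3 was performed in Setdb1 cKO iMEFs, immortalized mouse embryonic fibroblasts that carry a conditional allele of Setdb1. The cells were a single recloned line, so both groups come from 1 clone. WT denotes untreated cKO iMEFs, and KO denotes the same cells given 4-hydroxytamoxifen (4OHT) for 4 days to delete Setdb1 and collected on day 7. WT cells received no 4OHT, so the effects of the drug and of the deletion cannot be told apart. Each group had 1 library, so WT and KO could not be compared beyond the spread of replicates, no test was run, and intervals given with shares are 95% Wilson intervals that cover counting error only. Intervals of a KO number as a percent of a WT number were converted from the Wilson bounds on the fraction that KO peaks make up of all WT and KO peaks. The read total of each library is not part of the peak lists, and the part of depth in the number of peaks was not tested. How many copies of each chromosome the cells carry is also not given, and its part in the values below was not tested. The other 5 of 7 samples of the series were not analysed here.

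H3K9me3, trimethylated lysine 9 of histone H3, is a mark of silent chromatin that HP1 proteins bind. Setdb1 is a histone methyltransferase that deposits it mainly within euchromatin, where KRAB zinc-finger proteins bound to retroelements recruit it through Trim28. The mark at pericentromeric satellite repeats is instead laid down mainly by the Suv39h enzymes. In the text that follows, a WT peak that shares at least 1 bp with a KO peak is called retained and any other WT peak is called lost, while KO-only denotes a KO peak that no WT peak overlaps. The pileup is the number of fragments over the summit of a peak, and the score is the −log10 of its q-value. The local background is the number of fragments expected at the peak, recovered from the pileup and the fold enrichment. Its lowest value, the floor, was 1.16 fragments in WT and 1.07 in KO. The copy number of a peak is the median number of times that its 31-mers occur in the assembly. Only exact matches are counted, so a diverged repeat can have a copy number of 1. Single-copy denotes a copy number of 1 and does not mean that a sequence is free of repeats.

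The 5 sequences shown here are of peaks with a copy number of 1 and represent the 3 classes. They comprise the 3 highest-scoring single-copy KO-only peaks of at most 300 bases, the retained peak with the highest score, and the lost WT peak with the highest local background, which was chosen after its values were seen. All are read 5′ to 3′ on the plus strand of mm9. Capitals mark the called peak or, for the retained peak, the bases that the WT and KO peaks share.

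KO-only, Pcsk5 intron, chr19:17648760-17648913: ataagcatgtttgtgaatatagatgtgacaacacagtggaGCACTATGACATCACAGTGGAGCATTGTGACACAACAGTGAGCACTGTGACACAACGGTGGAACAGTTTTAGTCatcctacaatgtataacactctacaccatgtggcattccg
KO-only, between Anxa1 and Aldh1a1, chr19:20537487-20537723: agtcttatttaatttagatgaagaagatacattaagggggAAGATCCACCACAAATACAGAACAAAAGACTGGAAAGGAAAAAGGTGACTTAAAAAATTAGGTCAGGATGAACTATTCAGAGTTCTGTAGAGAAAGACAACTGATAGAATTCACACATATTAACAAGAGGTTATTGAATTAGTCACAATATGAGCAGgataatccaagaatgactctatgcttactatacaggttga
KO-only, distal to Kif20b, chr19:35326853-35327042: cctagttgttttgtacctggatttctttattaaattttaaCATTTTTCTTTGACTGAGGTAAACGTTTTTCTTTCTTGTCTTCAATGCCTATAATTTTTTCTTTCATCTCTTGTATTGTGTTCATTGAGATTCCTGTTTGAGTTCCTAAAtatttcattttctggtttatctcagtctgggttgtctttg
Retained, Mamdc2 intron, chr19:23431901-23432140: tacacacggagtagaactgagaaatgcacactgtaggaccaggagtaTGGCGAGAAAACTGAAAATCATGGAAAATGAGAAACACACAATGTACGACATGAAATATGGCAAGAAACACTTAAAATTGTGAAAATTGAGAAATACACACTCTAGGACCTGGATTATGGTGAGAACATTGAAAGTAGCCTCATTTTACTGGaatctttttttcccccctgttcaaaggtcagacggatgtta
Lost, Fbxw4 intron, chr19:45724455-45724753: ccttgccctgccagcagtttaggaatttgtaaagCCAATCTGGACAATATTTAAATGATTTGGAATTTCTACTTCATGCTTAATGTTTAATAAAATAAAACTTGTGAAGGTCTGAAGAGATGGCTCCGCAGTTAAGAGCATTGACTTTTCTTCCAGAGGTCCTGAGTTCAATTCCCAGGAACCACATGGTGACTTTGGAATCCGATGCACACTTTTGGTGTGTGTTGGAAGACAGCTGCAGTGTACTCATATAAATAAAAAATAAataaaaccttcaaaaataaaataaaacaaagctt

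The capitals of the Mamdc2 peak resemble themselves at an offset of 59 bases, where 54.8% of the letters were identical, and hold 35.5% GC. When the capitals of each sequence were aligned to all other peaks of both lists with 100 bases of flank, the Mamdc2 sequence had a match of at least 80% identity in 1 WT and 1 KO peak, both on chromosome 8 and both at a local background over 10 fragments. The Pcsk5 sequence had such a match in 17 WT peaks on 5 chromosomes, of which 8 lay on chromosome 17 and none on chromosome 19. Of these 17 peaks, 7 overlapped a KO peak and 9 had a background over 10 fragments. It also had a match in 8 KO peaks on 3 chromosomes. The 2 other KO-only sequences and the lost Fbxw4 sequence had no such match in either list. Identity was taken over the whole length of the capitals, so a likeness of only a part of them could go uncounted. These are descriptions of sequence likeness, and no repeat annotation was used here.

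Chromosome 19 was among the chromosomes richest in peaks in both groups. Its WT peaks numbered 12.3 per Mb of assembled sequence, the 4th highest of 20 chromosomes after correction for length, with chromosome 17 the highest at 14.3. Its KO peaks numbered 3.51 per Mb, second to chromosome 8 at 4.95. The KO list held 28.5% as many peaks as the WT list on chromosome 19 and 36.2% as many on chromosome 8, and the median of the other chromosomes was 13.2%. KO-only peaks numbered 3.22 per Mb, between 4.05 on chromosome 8 and 0.289 on chromosome 12, and made up 181 of the 197 KO peaks. This share was 91.9%, against 83.9% in the whole series. Of the other chromosomes, 14 (94.5%) and 15 (94.1%) had a higher share.

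**Figure D1:**
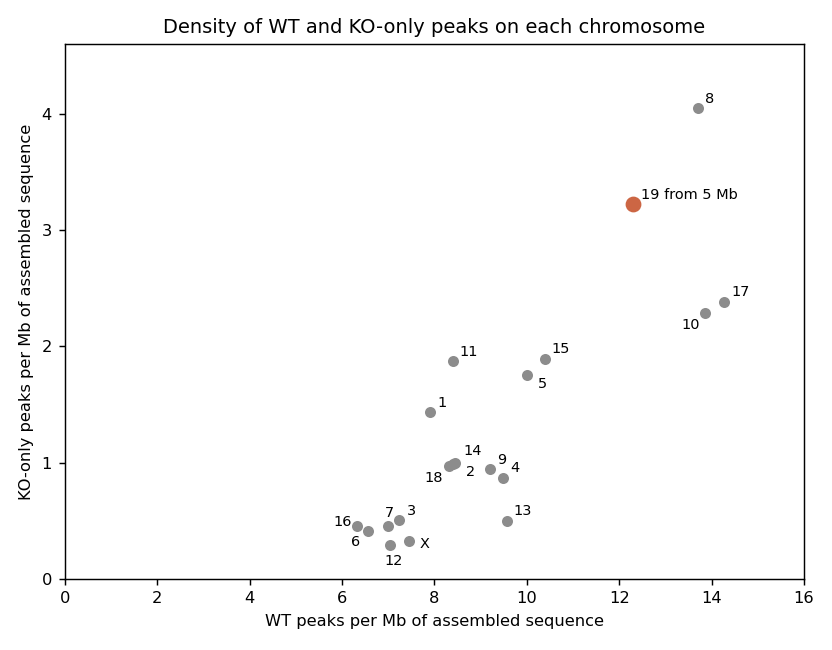
Each point is 1 chromosome, with the number of WT peaks per Mb of assembled sequence on the horizontal axis and the number of KO-only peaks per Mb on the vertical axis, from 1 library per group. Chromosome 19 from 5 Mb, drawn in orange, lies at 12.3 WT and 3.22 KO-only peaks per Mb, and only chromosome 8 lies higher on the vertical axis.

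Nearly all WT peaks of chromosome 19 had no counterpart in KO. A KO peak overlapped 15 of the 691 WT peaks, or 2.17%, and the share in the whole series was 2.42%, so that loss on chromosome 19 was near the background. The WT peaks covered 158.6 kb in all and the KO peaks 22.7 kb. The 676 lost peaks had a median width of 146.5 bp and a median pileup of 10 fragments, with a range from 9 to 56, and 16 of them were wider than 1 kb. Of these, 297, or 43.9%, stood at 9, the lowest pileup in either list, and 32 reached 15. Many lost peaks were thus themselves called near the minimum. The highest-scoring lost peak lay in an intron of Hpse2, which encodes heparanase 2, at chr19:43194361-43194568, with a pileup of 21 and a score of 14.7. Its sequence occurs in many places, with a copy number of 3790, so its reads could belong elsewhere. The next was a 1316-bp peak at chr19:61258126-61259442, near the distal end of the chromosome, with a pileup of 34 and a score of 11.8. The single-copy peak chr19:44932842-44934440 lay 20.1 kb beyond Pax2, a paired-box regulator of kidney and eye development, and had a pileup of 18. The lost peaks chr19:9334292-9336247, in the noncoding gene Gm9750, and chr19:9681540-9682830 had pileups of 18 and 20. A KO peak wider than 1 kb was not found on the chromosome.

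Retained peaks formed a few tall pairs and many low ones. In the tallest, in an intron of Mamdc2, which encodes a protein with MAM domains, the pileup was 116 in WT (exact Poisson interval 95.9 to 139.1, which covers counting error only) and 100 in KO (81.4 to 121.6). The WT and KO intervals overlap. The local background at this site was 28.3 fragments in WT and 34.9 in KO. The fold enrichment over it was 4.00 and 2.81, respectively. The copy number of 1 at this site counts exact matches only, so the site may be a diverged repeat. Its sequence matched 1 WT and 1 KO peak on chromosome 8, at backgrounds of 58.5 and 51.7 fragments. Whether reads of such similar sequence were placed at the Mamdc2 site was not tested. In an intron of Cyp2c69 the pileup was 50 in WT and 45 in KO. At the promoter of Cyp2c40 it was 41 and 37. Both Cyp2c peaks have a copy number of 2 and lie at backgrounds between 6.99 and 12.6 fragments, so that reads of near-identical copies may be shared between them and other sites. The KO pileup was lower in each of these 3 pairs, by less than the counting error. The fold enrichment was lower in KO in Mamdc2 and in Cyp2c69 (5.34 in WT, 3.39 in KO) and higher in Cyp2c40 (3.65 in WT, 4.76 in KO). Pileups were not scaled for depth, so a lower pileup does not by itself show less of the mark.

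The remaining 12 retained pairs were low, with WT pileups of 9 to 17 and KO pileups of 9 to 12. Among them was chr19:59811906-59812154, between Emx2 and Rab11fip2, with 16 fragments in WT and 12 in KO. The 2801-bp WT peak chr19:42718506-42721307 which lies 31.2 kb from Loxl4 and had a pileup of 17, was met in KO by 2 separate narrow peaks of 10 fragments each, which is why 16 KO peaks overlap 15 WT peaks. Over all 15 pairs the KO pileup was lower in 8, equal in 4 and higher in 3, and the KO peak was narrower in 12. The fold enrichment was lower in KO in 7 of the 15, with a median of 4.63 in WT and 4.76 in KO. The overlap was as short as 6 bp and at most 213 bp. Retained peaks of chromosome 19 were lower than elsewhere, with a median WT pileup of 11 fragments against 23 in the rest of the genome, and a median background of 1.31 against 4.67. Retention did not concentrate in single-copy sequence: 5 of 351 single-copy WT peaks were retained, or 1.42%, and 4 of 87 with a copy number over 1 to 10. The intervals of these shares, 0.610% to 3.29% and 1.80% to 11.2%, overlap.

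KO-only peaks were low, narrow and mostly of copy number 1. Their pileups ranged from 9 to 24 fragments with a median of 9, and 110 of 181, or 60.8%, stood at 9, the lowest pileup in either list. In the rest of the genome 51.5% of KO-only peaks stood at 9. On chromosome 19, 1 of 181 KO-only peaks reached 15 fragments, while 388 of 2986 did so elsewhere. The exception lay in an intron of Pcsk5, which encodes a proprotein convertase, at chr19:17648800-17648873, with a pileup of 24 (exact Poisson interval 15.4 to 35.7) and a fold enrichment of 10.4. The next were chr19:20537527-20537683, which lies 72.1 kb from Anxa1, chr19:35326893-35327002, which lies 277 kb from Kif20b, and chr19:9223360-9223458 in Gm9750, each with 12 fragments. Their Poisson interval, 6.20 to 21.0, includes the minimum pileup of 9. The fifth, chr19:35236640-35236992, was the widest KO-only peak of the chromosome at 352 bp and had 11 fragments. The median width of KO-only peaks was 89 bp, against 146.5 bp for lost WT peaks.

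**Figure D2:**
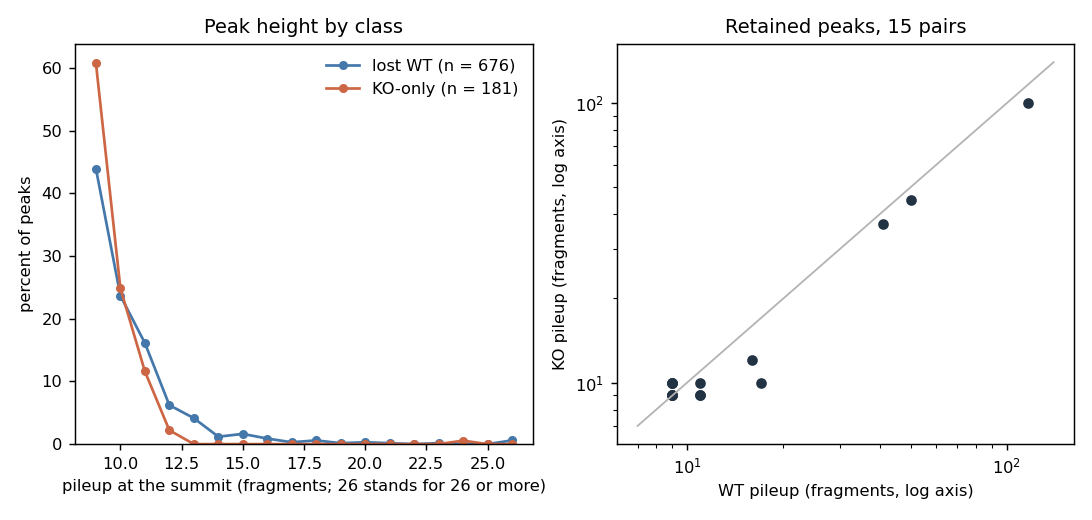
The left panel plots the percent of lost WT peaks (blue) and KO-only peaks (orange) of chromosome 19 at each pileup in fragments, and the right panel plots the KO against the WT pileup of the 15 retained pairs on log axes, with a line where both are equal. KO-only peaks stand mostly at 9 fragments with a single peak at 24, and 3 retained pairs stand far above the others with KO pileups of 37, 45 and 100.

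Of the KO-only peaks, 79.6% (73.1 to 84.8) had a copy number of 1, against 60.9% (59.1 to 62.6) in the rest of the genome. Lost WT peaks of the chromosome were also more often single-copy, at 51.2% (47.4 to 54.9) against 27.5% elsewhere. Sequence present over 1000 times, which includes the abundant retroelements, made up 18.2% of lost WT peaks here and 36.8% elsewhere. It made up 3.31% (1.53 to 7.04) of KO-only peaks here and 7.87% (6.96 to 8.89) elsewhere, and these intervals overlap. Within single-copy sequence the KO list held 43.0% as many peaks as the WT list (35.6 to 52.0), against 32.1% (30.5 to 33.8) elsewhere. These ratios use the counts for which the chromosome was chosen and are a description. Over 1000 copies, the values were 5.60% (2.66 to 11.8) and 3.36% (2.98 to 3.79), and the intervals overlap.

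The local background was often slightly raised and seldom high. In WT, 71.6% of peaks lay above the floor, against 52.4% in the rest of the genome. This was the highest share of the 20 chromosomes, followed by chromosomes 8, 10 and 17 at 70.2%, 67.2% and 64.3%. The median of the other chromosomes was 46.5%. In KO, 59.4% lay above the floor, the 4th highest, against 49.9% in the rest of the genome. Most of these values were small. Among KO-only peaks, 42.5% lay at the floor, 55.8% above the floor and up to 1.5 fragments, and 1.66% between 1.5 and 3. None of the 181 exceeded 3 fragments, which allows a share of up to 1.66% if 3 counts are taken as the limit that a count of 0 allows, whereas elsewhere 9.01% of KO-only peaks had a background over 3 to 10 fragments and 1.67% over 10. Elsewhere the background of a KO-only peak reached 53.1 fragments.

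At the floor the KO list of chromosome 19 held 40.8% as many peaks as the WT list (31.5 to 52.9), against 16.7% (15.9 to 17.6) elsewhere. Above the floor it held 23.6% (19.3 to 28.9), against 15.1% (14.4 to 15.9). These values use the same counts that the chromosome was chosen for, and are given as a description. The floor itself differed between WT and KO, and the part of this in the number of peaks that passed the caller was not tested.

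**Figure D3:**
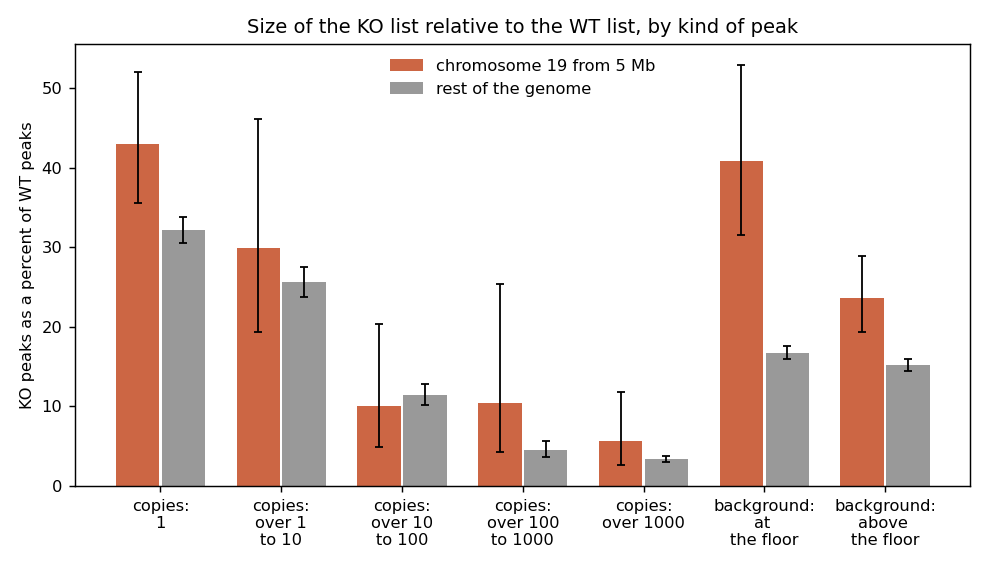
Bars give the number of KO peaks as a percent of the number of WT peaks on chromosome 19 from 5 Mb (orange) and in the rest of the genome (grey), split by copy number and, separately, by local background, and error bars are 95% intervals of counting error. On chromosome 19 the value falls from 43.0% in single-copy sequence to 5.60% over 1000 copies, and at the floor it is 40.8% against 16.7% elsewhere.

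Only 9 WT peaks and 3 KO peaks of the chromosome had a background over 3 fragments. The 3 KO peaks were those paired with the WT peaks in Mamdc2, Cyp2c69 and Cyp2c40, and so 3 of the 9 WT peaks were retained. By class, 2 of 3 WT peaks with a background over 10 were retained, 1 of 6 between 3 and 10, 1 of 96 between 1.5 and 3, 9 of 390 above the floor up to 1.5, and 2 of 196 at the floor. The lost one over 10 lay in an intron of Fbxw4, an F-box protein gene, with a pileup of 56, a background of 17.8 fragments and a fold enrichment of 3.04. Another 4 of the lost peaks stood side by side at the distal end of the chromosome, from chr19:61257466-61257710 to chr19:61259715-61260917, around the small gene model Gm6020. Their pileups were 20, 34, 19 and 34 fragments and their backgrounds 3.29, 5.26, 3.54 and 9.20. The last of the 9 lay in Tdrd1, a Tudor-domain gene of the germline piRNA pathway, with a pileup of 28 and a copy number of 7. These 6 lost peaks were chosen for description by their background, and a KO peak did not overlap any of them.

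Along the chromosome, WT and KO peaks clustered in part in the same windows. Each of the 57 windows of 1 Mb held a WT peak, with a median of 11 and a range from 1 to 66, while KO peaks had a median of 2 and a range from 0 to 12. The 3 windows with most WT peaks were those starting at 9 Mb with 66 peaks, at 39 Mb with 36 and at 8 Mb with 26, and together they held 18.5% of the WT peaks. The 3 with most KO peaks started at 9 Mb with 12, at 11 Mb with 12 and at 39 Mb with 11, and together held 17.8%. Across the 57 windows the Spearman correlation of WT with KO counts was 0.58. The windows share the same 2 libraries and neighbours share base composition, so this is a description without a p-value.

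The window at 9 Mb, whose 11 protein-coding genes run from B3gat3 to Incenp, held 3 retained peaks and had gene bodies over 34.1% of its bases. The window at 39 Mb holds most of the Cyp2c cluster and also had 3 retained peaks. The window at 11 Mb, where the 17 WT peaks exceeded the 12 KO peaks only slightly, contains 36 protein-coding genes. KO peaks outnumbered WT peaks in a single window, at 54 Mb, with 5 KO and 4 WT peaks. The numbers were equal at 19 Mb, with 9 of each, and at 48 Mb, with 2 of each. Retained peaks were found in 11 windows.

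In 11 windows there was no KO peak, and these held 55 WT peaks in all, from 1 to 13 each. They included the gene-rich windows at 5 and 6 Mb, with 52 and 35 protein-coding genes and a GC content of 49.4% and 50.5%, where a single WT peak was found in each. The others started at 29, 32, 37, 46, 47, 53, 55, 56 and 57 Mb. The number of KO-only peaks per window fell with GC content, with a Spearman correlation of -0.69 over the 57 windows, and that of WT peaks did so with -0.42. The correlations with the share of bases in gene bodies were -0.39 for both. The separate parts of GC content and gene density in these counts were not tested.

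**Figure D4:**
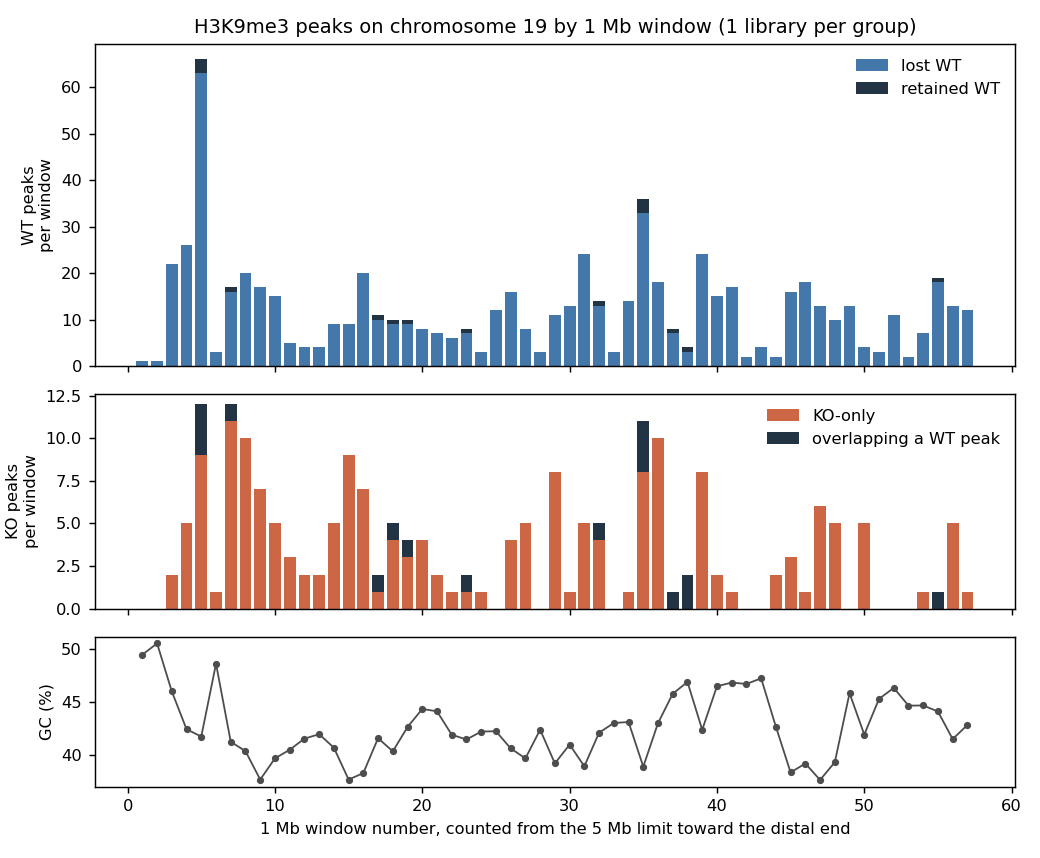
The upper and middle panels give the number of WT and KO peaks in each of the 57 windows of 1 Mb, counted from the 5 Mb limit, with retained WT peaks and KO peaks that overlap a WT peak in dark blue, and the lower panel gives the GC content of each window in percent. The tallest WT column, window 5, has 66 peaks, and the 2 first windows, with a GC content near 50%, have 1 WT peak each and no KO peak.

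Fewer KO-only peaks lay close beside a WT peak than elsewhere, by a margin near the counting error. Of the 181, 11.0% (7.27 to 16.5) lay within 1 kb of a WT peak, against 16.6% in the rest of the genome, and 37.6% (30.8 to 44.8) lay within 10 kb, against 44.6% (42.9 to 46.4). The median distance was 15.6 kb here and 13.7 kb elsewhere. Within 50 kb the shares were 78.5% and 75.5%. WT peaks were denser on chromosome 19 than on most chromosomes, and the part of this in the distances was not tested.

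The peaks lay mostly outside genes. Gene bodies cover 48.4% of the bases of the chromosome from 5 Mb, whereas 28.1% of WT peaks (24.9 to 31.5) and 32.0% of KO peaks (25.9 to 38.8) overlapped one. In the rest of the genome these shares were 23.9% of WT and 29.5% of KO peaks. Exons cover 3.98% of the bases and were overlapped by 2.03% of the WT and 1.02% of the KO peaks, compared with 2.6% and 3.58% elsewhere. Promoters, from 2 kb upstream to 0.5 kb downstream of a transcript start, cover 5.26% and were overlapped by 6.22% of WT and 3.05% of KO peaks. In the rest of the genome the promoter share was 3.78% of WT and 6.46% of KO peaks, so that it was higher on chromosome 19 in WT (interval 4.65 to 8.28) and the lower value in KO rests on 6 peaks, with an interval up to 6.48. Of the 660 protein-coding genes of the chromosome from 5 Mb, 76 held a WT peak in the body, or 11.5% against 9.05% in the whole series, and 32 held a KO peak, or 4.85% against 2.32%. Both kinds were present in 27 genes, which is 35.5% of the genes with a WT peak and 84.4% of those with a KO peak. The genes with peaks were long, with a median length of 91.9 kb for KO, 65.0 kb for WT and 14.9 kb over all 660 genes, and the part of length in these counts was not tested.

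The genes with the most KO peaks were long genes that also held WT peaks. Prkg1, which encodes a cGMP-dependent protein kinase and is 1196 kb long, held 12 WT and 7 KO peaks. Hpse2, 599 kb long, held 15 WT and 5 KO peaks. In both genes each KO peak was KO-only and none of the WT peaks was retained. Over the chromosome, 91.9% of KO peaks were KO-only and 2.17% of WT peaks were retained. Pileups were 9 to 10 in WT and 9 in KO in Prkg1, and 9 to 21 and 9 to 10 in Hpse2. The KO calls thus stood near the minimum of 9, and whether the mark changed place was not tested. Trpm3, a cation channel gene, held 6 WT and 2 KO peaks, and Pcsk5 held 3 and 2. Htr7, a serotonin receptor gene, held 4 WT peaks, of which 1 was retained, and 3 KO peaks. Sorcs3, a sorting receptor gene, held 2 KO peaks and no WT peak over 599 kb. The lipase genes Lipo1 and Lipo4 overlap in position, and Lipo1 held 2 WT and 3 KO peaks. The other genes with at least 2 KO peaks were 1700017D01Rik with 3, and Mamdc2, Rnls, Cyp2c40 and Cyp2c69 with 2 each, and Cyp2c50 with 3. Besides Sorcs3, the genes Gm8369, Lipo4, Cyp2c29 and Cyp2c70 held a KO peak without a WT peak, 1 each. The KO peaks of these 5 genes had pileups of 9 to 11 fragments, near the minimum.

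**Figure D5:**
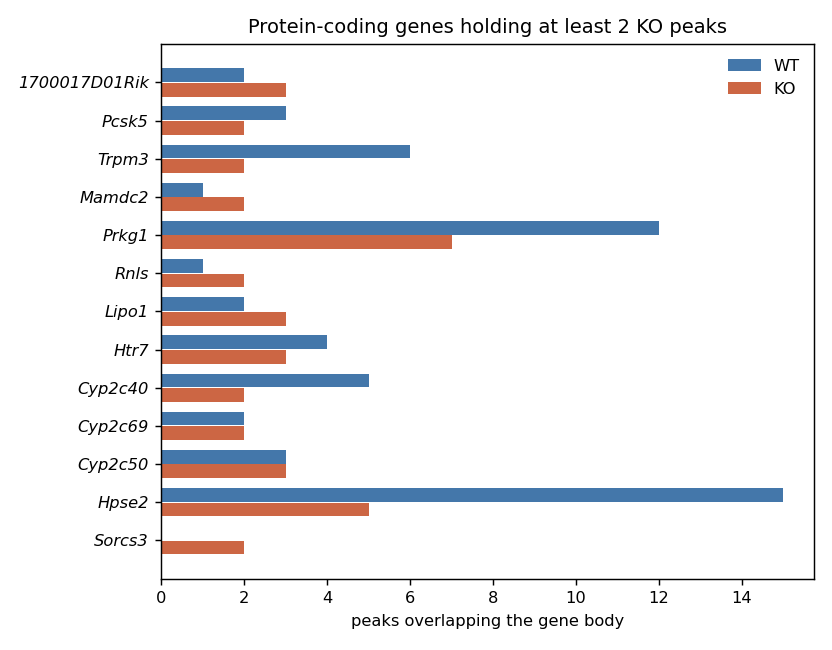
Bars give the number of WT (blue) and KO (orange) peaks that overlap the body of each of the 13 protein-coding genes with at least 2 KO peaks, ordered along the chromosome. Hpse2 has 15 WT and 5 KO peaks and Prkg1 has 12 and 7, and Sorcs3 has KO peaks alone.

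The Cyp2c genes encode cytochrome P450 enzymes that oxidize drugs, arachidonic acid and other lipids, chiefly in the liver, and have multiplied in the mouse. Of 15 annotated members, 10 held a WT peak and 9 a KO peak in the body. Over all 660 genes of the chromosome the shares were 11.5% and 4.85%, and the part of gene length was not tested. A cluster of 14 Cyp2c genes lies from 39081509 to 40261823. It held 20 KO peaks over 1180 kb, of which 17 were KO-only, and 48 WT peaks, of which 3 were retained. These 3 are a share of the 15 retained peaks of the chromosome, and 2 of them, in Cyp2c40 and Cyp2c69, are the tall pairs described above. Over the chromosome, 2.17% of WT peaks were retained and 91.9% of KO peaks were KO-only. The median pileup in the cluster was 10 fragments in WT and 9.5 in KO. Of the peaks in the cluster, 35 WT and 10 KO peaks had a copy number over 1. Because a read that fits several places was assigned to 1 of them at random, the counts of single members of this family are uncertain. By member, Cyp2c38 held 6 WT and 1 KO peak, Cyp2c40 held 5 and 2, and Cyp2c50 held 3 of each.

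The counts of the other gene lists are small and stand beside 11.5% of all 660 genes of the chromosome with a WT peak and 4.85% with a KO peak in the body. Of 10 Slc22a genes, which encode transporters of organic ions, 5 held a WT and 3 a KO peak, with 14 WT peaks of which none was retained and 3 KO peaks, each KO-only. Of 8 lipase genes (Lip), 3 held a WT and 2 a KO peak. Of 3 Dmrt genes, which encode DM-domain regulators of sexual development, Dmrt1 alone held peaks, with 3 in WT and none in KO. Of 2 Trpm genes, Trpm3 alone held peaks. Of 2 Sorcs genes, 1 held a WT peak and both a KO peak. Among 3 Zfp genes, Zfp950 held 1 WT peak with a pileup of 14 in its body and no KO peak. This peak and 2 more WT peaks, each with a pileup of 16, overlapped the promoter of Zfp950. Of the 65 olfactory receptor genes (Olfr), which lie between 11902567 and 13994534, none held a peak in its body, and the promoter of Olfr1469 overlapped 1 KO peak. The body of Olfr1469 spans 0.93 kb, against a median of 14.9 kb over all 660 genes. In the window from 13000001 to 14000000, which contains 37 Olfr genes, gene bodies cover 3.94% of the bases. That window held 17 WT and 7 KO peaks, so the region itself was not free of peaks. The part of gene length in the counts of these lists was not tested. The 17 Ms4a, 3 Fads, 3 Ifit, 2 Aldh1a and 1 Scgb genes also had no peak in their bodies in either list.

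At promoters, 23 genes held a WT peak, or 3.48% of 660 against 1.86% in the whole series, and 4 held a KO peak, or 0.606% against 0.527%. The 4 were Cyp2c40, Gm336, Olfr1469 and Gldc, a gene of the glycine cleavage system. Cyp2c40 and Gm336 held promoter peaks in both lists. At Gm336 the single-copy WT peak chr19:11166985-11167289 had 9 fragments and the KO peak within it had 10. Exon peaks were found in 10 genes in WT and in 2 genes, Htr7 and Cyp2c50, in KO.

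WT peaks at promoters or exons were found in 27 genes together, and the values of 6 of them are given here, chosen after they were seen. Slc16a12, a monocarboxylate transporter gene, had 4 WT promoter peaks with pileups of 13, 9, 9 and 10 fragments, and 2 of them had a copy number over 1. Tlx1, a homeobox gene needed for the spleen, had 3 promoter peaks with 11, 12 and 11 fragments. Nkx2-3, a homeobox gene of gut and spleen, had 2 promoter peaks of 13 fragments each and 1 exon peak of 11. Both promoter peaks also lie at the promoter of the neighbouring gene model Gm20467, and 1 of them overlaps an exon of it. Lbx1, a homeobox gene of muscle precursors and spinal neurons, had 2 exon peaks with 11 and 9 fragments, and Pax2 had 2 with 9 and 10. Vax1, a homeobox gene of the optic nerve, had 1 promoter peak of 10 fragments and none in its body. The peaks of the last 5 genes were single-copy. No KO peak was called in the body or at the promoter of any of the 6. Over all protein-coding genes of the chromosome, 4.85% held a KO peak in the body and 0.606% at the promoter. The absence of a KO peak thus does not set these 6 genes apart from most others. Among the others of the 27 were Slc1a1, a glutamate transporter gene, Slc18a2, which encodes a vesicular monoamine transporter, Foxd4, Pdcd1lg2, Rln1, Syt7, Asrgl1, Fam111a and Zfp950.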

How the data were processed

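H3K9me3 was measured by ChIP-seq of chromatin cut by micrococcal nuclease, per the labels, in WT and KO Setdb1 cKO iMEFs, 1 library each. The authors aligned the single-end reads by Bowtie2 2.2.3 to the mm9 assembly, placed each read with several best sites at a random one of them, took out duplicates with Picard and called peaks with MACS 2.1.0.20140616, a version given in the file headers. The series also holds an input library of the WT and of the KO iMEFs. Whether the caller used these inputs for the local background, and with which settings, is not given in the sources used here. The deposited pileup is a signal, the fragment coverage at the summit. The deposited fold enrichment relates the pileup to the local background as a ratio, each raised by 1. The deposited significances are the −log10 of a p-value and of a q-value.

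The background was computed as (pileup + 1) / fold − 1, and a Poisson tail from it matched the deposited −log10 p-values to within 3.77e-05. The lists hold no depth, so counting intervals are given at 95% and cover counting error only. The files do not say if starts count from 0 or 1, which leaves an uncertainty of 1 bp. Genes came from GENCODE M1 on NCBIM37, which is mm9. Overlap needed 1 bp. The interval code recovered 200 of 200 planted overlaps among 5000 simulated peaks. Copy numbers used 31-mers on both strands, and edlib 1.3.9.post1 aligned sequences. The named items were the 5 highest-scoring peaks of each class, the 3 fullest windows of each list, windows without KO peaks, protein-coding genes with 2 KO peaks or with a promoter or exon peak, and members of 13 gene lists. The members and lists were chosen with earlier results of these data known. No test was run. Alternatives covered thresholds, overlap, merging, windows, copy number, background and gene type. Scripts ran in Python 3.11.15 (matplotlib 3.10.9, numba 0.67.0, numpy 2.4.6, scipy 1.17.1, pysam 0.24.0, pandas 2.3.3).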

Additional observations from a re-analysis of the deposited data

How the results depend on the processing

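Of 82 values recomputed under 13 alternatives, 45 stayed within the counting interval or within 1.5 times the count and 37 did not. No paired analysis was possible because WT and KO had 1 library each. With both lists at or above the WT median score, 311 WT and 62 KO peaks remained (19.9%), of which 57 were KO-only, 69.4% of KO peaks lay above the floor, 3 windows had more KO than WT peaks and 26 had no KO peak. Keeping pileups from 15 upward left 37 WT and 4 KO peaks (10.8%), 8.11% of WT peaks were retained, 1 KO peak, or 25%, was KO-only, 91.9% of WT and 100% of KO peaks lay above the floor, 40.5% and 100% lay in gene bodies and 54 windows had no KO peak. Merging peaks within 1 kb gave a KO list of 33.6% of WT. Asking for an overlap of at least 0.5 of the peak gave 1.30% retained, reciprocal overlap 1.16% retained and 95.9% KO-only, and a distance within 1 kb 5.35% and 81.7%. When both lists were limited to floor peaks before they were overlapped, 196 in WT and 80 in KO (40.8%), 0% of WT peaks were retained, which allows up to 1.53% with 3 counts as the limit, and all 80 KO peaks, or 100%, were KO-only. Against the whole KO list, 2 of these 196 were retained. Of the floor peaks, 24.5% in WT lay in gene bodies. Among peaks of 1 copy, 351 in WT and 151 in KO (43.0%), 96.7% of KO peaks were KO-only. In windows of 2 Mb, 0 had more KO than WT peaks and 3 had no KO peak. Of WT peaks, 24.02% lay in protein-coding genes. Leaving out peaks at a background over 3, an alternative chosen after the data were seen, moved none of its 8 values, with 1.76% retained. The cause of the other shifts was not tested. The share of KO-only peaks rests on calls near the minimum pileup, and each count depends on a library depth that the lists do not hold.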
